A study of Mus musculus with 32 samples.

Results

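The data described here are 8 of the 32 RNA sequencing libraries of the series, those of satellite cells taken on day 3 after injury of the supraspinatus, a shoulder muscle of the mouse. They were chosen by the cell type and day in the labels: 4 libraries came from muscle that had been given brown adipose tissue (BAT) and 4 from control muscle. In the BAT group, muscle was injected with cardiotoxin, a venom toxin that kills myofibres, and then received interscapular brown fat from donors aged 3 weeks. In the control group the muscle had the cardiotoxin injury alone. All hosts were described as wild type C57BL/6J males aged 12 weeks, and each BAT library is paired with a control library of the same mouse, so that 4 mice carry the comparison (for replicate 3, whose libraries carry no mouse code, the pair was inferred). Cells were sorted as negative for CD45 and CD31 and positive for Sca1 and alpha7 integrin. No sham-operated muscle and no graft of another tissue was analysed here, so that effects of brown fat and of surgery cannot be told apart. Whether the 4 mice were handled on the same day is not given in the sources used here. With the mouse as a block, p-values set the mean difference between BAT and control against its spread among these mice. The fit estimates that spread in part from other genes. The comparison asks whether the transcriptome of satellite cells differed by day 3 between grafted and control muscle of the same mice. A change that the graft made in both muscles would not be seen in it.

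Satellite cells are the stem cells of skeletal muscle and lie between the myofibre and its basement membrane. In resting muscle they hold the transcription factor Pax7. After injury they enter the cell cycle, express the myogenic factors Myf5 and Myod1, and then either return to quiescence or express Myog, leave the cycle and fuse into new fibres. Brown adipose tissue oxidises fatty acids through the uncoupling protein Ucp1 and also secretes hormones and growth factors. Notch ligands hold satellite cells back from differentiation, and bone morphogenetic proteins (BMPs) do so in part through Id proteins, which bind and block the partners of the myogenic factors.

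The libraries held the transcripts of the cell type in their label. In units of 1000000 counts, library totals were 19.8 to 37.4 with BAT and 21.9 to 46.4 in control. A gene with 0 counts could have been present at up to 0.152 CPM (the count divided by the library total and scaled to 1000000) in the shallowest library, the level that 3 counts give, and this limit covers counting error only. Pax7 was at 21, 28, 34.1 and 33.6 CPM in BAT replicates 1 to 4 and at 24.5, 26, 30.3 and 40.5 CPM in control replicates 1 to 4. Myod1 was at 273 to 637 CPM with BAT and at 329 to 612 CPM in control. Itga7, the integrin subunit used in the sort, was at 319 to 561 CPM with BAT and 319 to 596 CPM in control. Each of these 3 genes therefore overlapped between the groups. Ly6a, which encodes Sca1, was low for a gate that the labels give as Sca1 positive: it was at 2.48 to 42.8 CPM with BAT and at 2.38 to 32.5 CPM in control. Its level was 532 to 933 CPM in all 8 day 3 libraries of fibro-adipogenic progenitors (FAPs), the mesenchymal cells of muscle. Pecam1 (CD31), whose protein was sorted out, was at most 2.61 CPM. Brown fat RNA was near the detection limit: Ucp1 had 0 counts in 6 of the 8 libraries and at most 0.176 CPM in BAT replicate 4, and Adipoq, which encodes adiponectin, did not exceed 0.107 CPM.

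Macrophage transcripts differed widely between the libraries, and they did so within pairs. Lyz2, the lysozyme of myeloid cells, was at 34.9, 96.8, 2.58 and 1058 CPM in BAT replicates 1 to 4 and at 23.1, 22.5, 953 and 1.60 CPM in control replicates 1 to 4. Ptprc, which encodes the leukocyte antigen CD45 excluded by the sort, was at 0.460, 1.18, 0 and 10.3 CPM with BAT and at 0.189, 0.151, 9.91 and 0 CPM in control. Thus 2 libraries stood apart, BAT replicate 4 and control replicate 3, and they belong to different mice and to different groups. The summed level of the 25 macrophage and monocyte genes other than Spp1 was 20.5 to 233 CPM in the other 3 BAT libraries and 2558 CPM in BAT replicate 4, and it was 21.2 to 64.2 CPM in the other 3 control libraries and 2223 CPM in control replicate 3. Spp1, a secreted phosphoprotein, was left out of this sum after its values were seen, because it was at 1040 to 1770 CPM with BAT and 885 to 2090 CPM in control, high in every library. Defining macrophage genes were present in these 2 libraries and low or absent elsewhere: Adgre1 was at 31.0 CPM in BAT replicate 4 and at 0 to 3.59 CPM in the other BAT libraries, and at 27.5 CPM in control replicate 3 and at 0 to 0.862 CPM in the other control libraries.

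Other cell types also marked single libraries. Neutrophil genes were high in control replicate 3, with S100a8 at 44.3 CPM and S100a9 at 28.4 CPM there, against at most 3.52 CPM of S100a8 and 3.74 CPM of S100a9 with BAT, and with the granule gene Ngp, chosen after its values were seen, at 78.1 CPM against at most 0.237 CPM in the other 7 libraries. BAT replicate 2 held tenocyte and red cell transcripts: Fmod, a tendon proteoglycan, was at 227 CPM there and at 9.56 to 27.1 CPM in the other BAT libraries, against 1.28 to 29.7 CPM in control. Hbb-bs, a beta globin, was at 298 CPM in BAT replicate 2 and at 3.84 to 57.0 CPM in the other BAT libraries, against 1.62 to 93.0 CPM in control. Lymphocyte genes summed to at most 7.84 CPM with BAT and 9.47 CPM in control. The leading axis of variation over all tested genes, which took 45.3% of the variance, placed BAT replicate 4 (67.7) and control replicate 3 (48.6) at one end, then BAT replicate 2 (22.6), and the remaining 5 libraries between -16.3 and -41.4. Its strongest genes included Lcp1, Cd74 and Lyz2, all of leukocytes. In bulk libraries, a difference in the number of such cells and a difference in the RNA of each cell cannot be told apart.

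**Figure D1:**
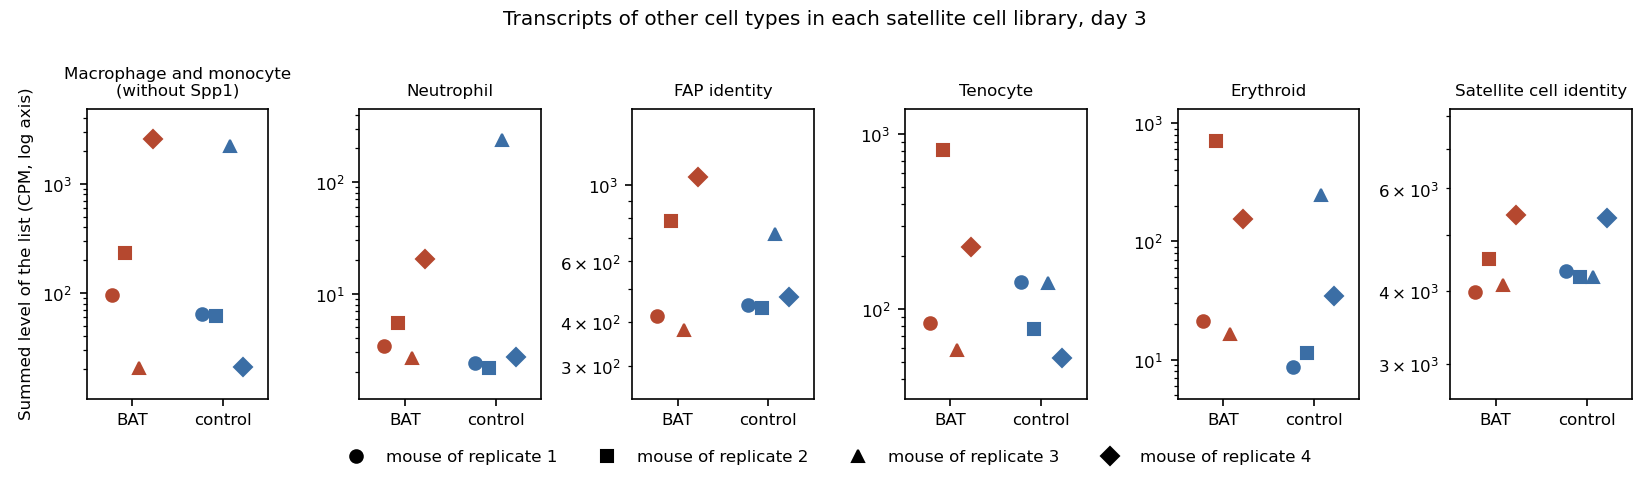
Summed level (CPM, log axis) of 6 gene lists in each satellite cell library of day 3, BAT left and control right, with 1 marker shape per mouse. Macrophage transcripts are high in BAT replicate 4 (2558 CPM without Spp1) and control replicate 3 (2223 CPM), tenocyte and red cell transcripts in BAT replicate 2, and the satellite cell sum lies between 3986 and 5401 CPM in all 8 libraries.

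No gene passed the test between BAT and control satellite cells. The edgeR quasi-likelihood test with the mouse as a block called 0 of 15631 genes at a Benjamini-Hochberg adjusted p under 0.05 (0%), and the lowest adjusted p was 0.9999. At an unadjusted p under 0.05 there were 469 genes (3%). Of these, 215 were higher with BAT (1.38%) and 254 lower (1.62%). Limma voom called 0 genes, with 532 at an unadjusted p under 0.05, and DESeq2 called 0, with 410. The fitted change was above 0 for 48.5% of the genes, a share that the scaling holds near the middle. Of all tested genes 12759 (81.6%) had a 95% interval of the change that lay within 2-fold in either direction, and for these genes a larger mean change is outside the interval. Leaving out replicate 3, the mouse with the macrophage-rich control library, gave 2 calls, Arg1, the arginase of activated macrophages (log2 change 5.33, adjusted p = 0.0412), and Tnn, the matrix protein tenascin N (5.06, 0.0412). The Arg1 level was 14.9 CPM in the macrophage-rich BAT replicate 4 and at most 0.817 CPM in the other BAT libraries, against 4.78 CPM in control replicate 3 and at most 0.178 CPM in the other control libraries.

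Genes of satellite cell identity did not pass, and their fitted changes were small. Of 25 listed genes, all tested, 10 were fitted above 0 and 15 below, with a median log2 change of -0.04 against -0.00 over all tested genes, and 24 had an interval within 2-fold. After scaling by TMM (trimmed mean of M values), Pax7 averaged 29.1 ± 5.17 CPM with BAT and 30.2 ± 6.49 CPM in control (SD, n = 4 each), a log2 change of -0.05 ± 0.10 (SE) with a 95% interval from -0.26 to 0.17. Pax3, its relative, had a change of -0.06 ± 0.17, and Vcam1, an adhesion molecule of satellite cells, one of 0.05 ± 0.07. Sdc4, a surface proteoglycan, had 0.11 ± 0.07, and these last 2 genes were higher with BAT in 4 of 4 mice, without passing. Calcr, a calcitonin receptor found on quiescent satellite cells, was at only 1.44 ± 0.478 CPM with BAT and 1.56 ± 0.479 CPM in control. Chodl, a surface lectin, was the member whose interval left the 2-fold bound (-0.94 to 1.21), and it stood at 27.5 CPM in BAT replicate 2 and at 6.34 to 12.9 CPM in the remaining BAT libraries, against 10.1 to 14.7 CPM in control.

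Regulators of myogenic commitment and fusion did not pass either. Of the 19 tested genes on the list, 6 were fitted above 0 and 13 below, with a median of -0.05, and 18 had an interval within 2-fold. The determination factor Myf5 averaged 136 ± 14.8 CPM with BAT and 124 ± 23.4 CPM in control (0.15 ± 0.11). Myod1, which commits the cells to muscle, averaged 428 ± 138 CPM with BAT and 458 ± 129 CPM in control (-0.11 ± 0.11). Myog, the factor of terminal differentiation, was at 695, 819, 267 and 1074 CPM in BAT replicates 1 to 4 and at 491, 968, 312 and 917 CPM in control replicates 1 to 4. Its 2 lowest values were those of replicate 3, the inferred pair, with and without the graft, and the change was 0.07 ± 0.13 (95% interval -0.25 to 0.38). The fusion proteins Mymk (0.09 ± 0.15) and Mymx (-0.16 ± 0.17) had changes of opposite sign, both smaller than their SE.

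The smallest p on that list belonged to Tcf3, which encodes the E proteins that pair with Myod1 on DNA. Tcf3 was at 18.8, 19.6, 29.0 and 32.8 CPM in BAT replicates 1 to 4 and at 28.1, 25.6, 37.4 and 34.9 CPM in control replicates 1 to 4. It was lower with BAT in each of the 4 mice, although the groups overlapped, with a log2 change of -0.35 ± 0.10 and an edgeR unadjusted p of 0.00572, and it did not pass. Mef2a, a partner of the myogenic factors, was also lower in 4 of 4 mice (-0.17 ± 0.08). Over all genes 6.10% were lower in 4 of 4 mice and 5.41% higher, and 2 of these 19 genes were lower and 0 higher.

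**Figure D2:**
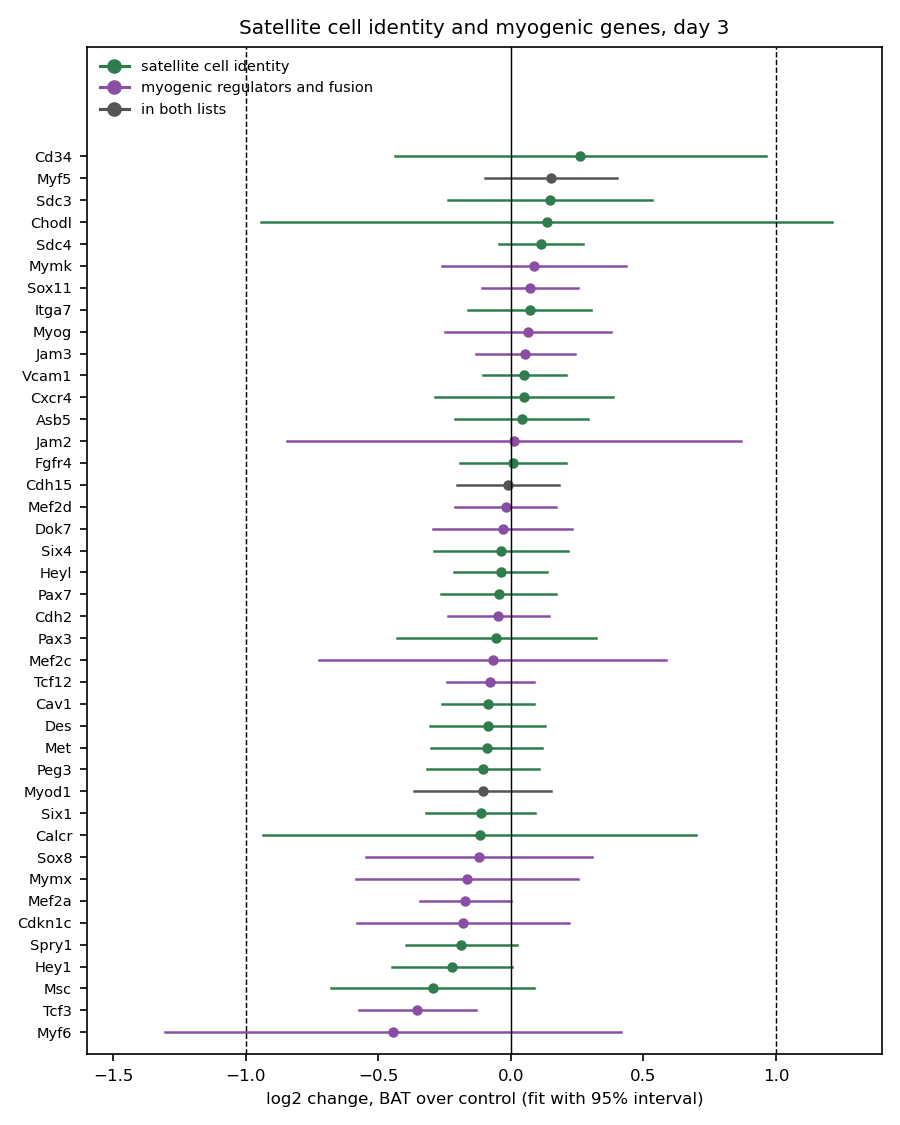
Fitted log2 change with BAT over control and its 95% interval for the 41 tested genes of the satellite cell identity and myogenic lists, sorted by change. Dashed lines mark a 2-fold change, and every interval but those of Chodl and Myf6 lies between them.

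Sarcomere genes, which mark cells on the way to fibres, were balanced between the groups but not between the mice. Of 25 early and embryonic sarcomere genes 13 were fitted above 0 and 12 below, with a median of 0.00. Within the mice the median difference was 0.43, -0.38, -0.09 and -0.00 for replicates 1 to 4, so that the list was higher with BAT in replicate 1, lower in replicate 2 and near 0 in the other mice. The giant protein gene Ttn was at 212 to 280 CPM with BAT and 225 to 370 CPM in control and was lower in 4 of 4 mice (-0.19 ± 0.08), without passing. Ckm, the muscle creatine kinase, averaged 8.62 ± 4.44 CPM with BAT and 6.65 ± 4 CPM in control (0.36 ± 0.18), and an antisense gene overlaps it. Of the 10 tested genes of mature fibres 7 were fitted above 0 (median 0.10), among them Actn3, the actinin of fast fibres, at 0.10 ± 0.08 and higher in 4 of 4 mice. The median of that list was -0.02 without replicate 1 and -0.17 in an unpaired fit without the macrophage-rich libraries.

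Among the signals that hold satellite cells back, Notch targets and Id1 had the smallest p. Of 16 tested Notch genes 11 were fitted below 0 (median -0.12). Within the mice the Notch median was -0.10, 0.04, -0.07 and 0.03 for replicates 1 to 4. The Notch target Hes1 was at 41.1, 29.9, 42.4 and 51.0 CPM with BAT in replicates 1 to 4 and at 41.2, 51.9, 46.6 and 74.8 CPM in control replicates 1 to 4, lower in 4 of 4 mice (-0.37 ± 0.13, edgeR unadjusted p = 0.0249), with nearly the same level on both sides in replicate 1. Hey1, another Notch target, had -0.22 ± 0.10, and Heyl had -0.04 ± 0.08. Of 19 tested genes of BMP signalling 7 were fitted above 0 and 12 below (median -0.03).

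Id1, a target of BMP signalling that blocks E proteins, was at 613, 572, 727 and 636 CPM in BAT replicates 1 to 4 and at 770, 781, 791 and 849 CPM in control replicates 1 to 4. Every BAT library lay below every control library. The means were 637 ± 65.6 CPM with BAT and 798 ± 35.7 CPM in control, a log2 change of -0.33 ± 0.08 (95% interval -0.51 to -0.14, edgeR unadjusted p = 0.00304), which did not pass over all genes. Such a gap without overlap was seen in 0.838% of genes in this direction and in 0.531% in the other. The BMP feedback inhibitors Smad7 (-0.24 ± 0.13) and Bambi (-0.32 ± 0.20) were lower in 3 of 4 mice. Id1 lies on chromosome 2 at 152736251 to 152737410 on the plus strand of mm10 (GENCODE M21).

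Cell cycle genes had narrow intervals. All 40 listed genes were tested, 22 were fitted above 0 and 18 below with a median of 0.02, and all 40 intervals lay within 2-fold. In these cells 7 of the 40 were higher with BAT in 4 of 4 mice and 2 were lower. Over all tested genes 5.41% were higher and 6.1% lower in 4 of 4 mice. Tubg1, the gamma tubulin that nucleates microtubules at the centrosome, was at 73.0, 80.1, 99.3 and 91.8 CPM with BAT in replicates 1 to 4 and at 56.4, 57.9, 82.8 and 80.0 CPM in control replicates 1 to 4, and each mouse had the higher value on the BAT side (0.33 ± 0.08, edgeR unadjusted p = 0.00262). Tubg1 has a close paralog, Tubg2, with which reads could have been shared. The replication licensing genes Mcm3 (0.18 ± 0.07) and Mcm5 (0.18 ± 0.08) were higher in 4 of 4 mice, and Ube2c, an enzyme of mitotic exit, was lower in 4 of 4 (-0.17 ± 0.07). None of these passed.

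Genes of brown fat and of fuel use were described because the graft is an oxidative tissue. Of 20 brown and beige adipocyte genes 10 could be tested, and 9 were fitted above 0 (median 0.25). That median was 0.17 without replicate 4, 0.11 without the 2 mice that hold a macrophage-rich library and 0.08 in the unpaired fit without those libraries. Dio2, which activates thyroid hormone, was at 5.51, 5.64, 3.44 and 4.88 CPM with BAT in replicates 1 to 4 and at 4.51, 4.49, 2.04 and 3.24 CPM in control replicates 1 to 4, higher in 4 of 4 mice (0.49 ± 0.17, edgeR unadjusted p = 0.0195). Fgf21, a hormone made by stressed muscle and by brown fat, averaged 5.57 ± 3.59 CPM with BAT and 3.71 ± 2.08 CPM in control (0.56 ± 0.30). The coactivator Ppargc1a was at 3.49 to 5.05 CPM with BAT and 3.10 to 4.44 CPM in control (0.10 ± 0.18).

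Mitochondrial and glycolytic genes had small fitted changes. Of 20 fatty acid oxidation genes 14 were fitted above 0 (median 0.05), among them Hadha, a subunit of the trifunctional protein of beta oxidation, at 93.0 to 110 CPM with BAT and 82.4 to 99.9 CPM in control (0.20 ± 0.07, higher in 4 of 4 mice). Nuclear genes of oxidative phosphorylation were fitted below 0 in 40 of 48 cases (median -0.05, all 48 intervals within 2-fold), and 12 of 13 mitochondrially encoded genes were fitted below 0 (median -0.12). Medians within the mice of replicates 1 to 4 were 0.19, -0.27, 0.03 and -0.13 for the nuclear genes. For the mitochondrially encoded genes they were 0.05, -0.24, 0.07 and -0.30. Both lists were above 0 in 2 mice and below in 2. Glycolysis genes were fitted above 0 in 14 of 17 entries (2 entries carry the symbol Aldoa), with a median of 0.13, which was 0.08 without replicate 4, 0.07 without the 2 mice that hold a macrophage-rich library and 0.02 in the unpaired fit without those libraries. The glucose transporter Slc2a1 was at 101, 59.3, 70.5 and 93.5 CPM with BAT in replicates 1 to 4 and at 95, 46.3, 66.0 and 59.1 CPM in control replicates 1 to 4 (0.30 ± 0.11, higher in 4 of 4 mice). Pkm, the pyruvate kinase, averaged 3740 ± 202 CPM with BAT and 3382 ± 164 CPM in control (0.14 ± 0.07). The 34 ribosomal protein genes had a median of -0.01 and all intervals within 2-fold.

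Among all genes with the same direction in 4 of 4 mice, the smallest p of those higher with BAT belonged to Gm50388, Stc1, Tubg1, Gm15801, Ptbp1, Farsa, Tab1 and Trarg1. Stc1, the hormone stanniocalcin, averaged 2.20 ± 1.15 CPM with BAT and 0.991 ± 0.380 CPM in control (1.11 ± 0.25). Ptbp1, a splicing repressor, was at 117, 134, 205 and 168 CPM with BAT in replicates 1 to 4 and at 108, 96.3, 169 and 125 CPM in control replicates 1 to 4 (0.33 ± 0.08). Farsa, a phenylalanine tRNA synthetase subunit, averaged 111 ± 13.4 CPM with BAT and 87.7 ± 14.2 CPM in control (0.34 ± 0.09), and Tab1, an activator of the kinase TAK1, averaged 24.1 ± 4.95 CPM with BAT and 18.8 ± 6.26 CPM in control (0.39 ± 0.10). The smallest p of those lower with BAT belonged to CT010467.2, Gm8783, Tent5b, Gm44709, Id1, Hsp25-ps1, Hspb1 and 1700037C18Rik. Tent5b, a poly(A) polymerase of the TENT5 family, averaged 7.97 ± 2.63 CPM with BAT and 11.5 ± 2.37 CPM in control (-0.56 ± 0.13). Ptbp1, Tent5b, Gm44709, Stc1, 1700037C18Rik and Hsp25-ps1 overlap genes of the opposite strand in GENCODE M21, so that without stated use of strand their reads cannot be assigned with certainty.

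**Figure D3:**
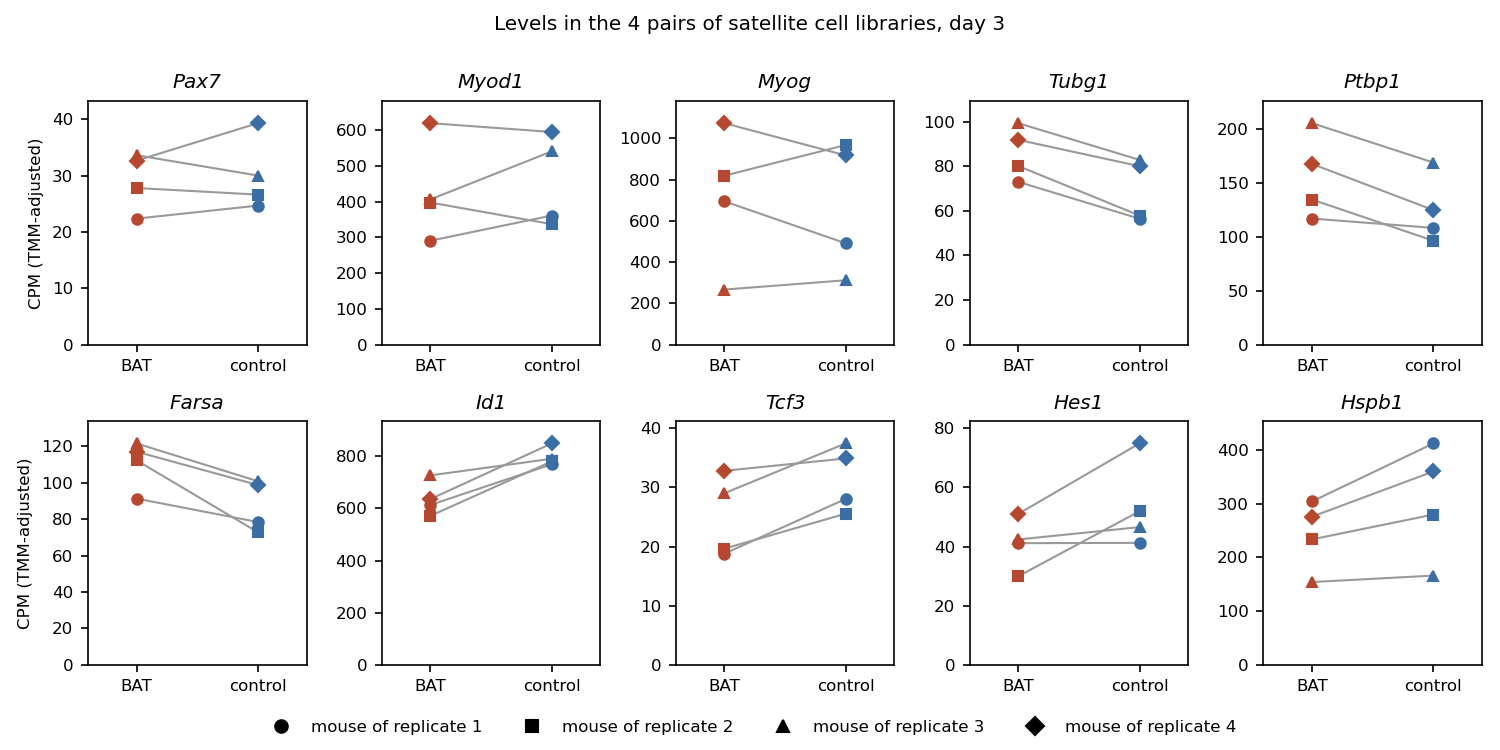
TMM-adjusted CPM of 10 genes in the 4 pairs of satellite cell libraries, BAT left and control right, with lines joining the 2 libraries of a mouse. Tubg1, Ptbp1 and Farsa are higher and Id1, Tcf3, Hes1 and Hspb1 lower with BAT in each mouse, while Pax7, Myod1 and Myog cross, and none of the 10 passed the test.

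Of these 16 entries, 4 are members of near-identical pairs, and their sequences are shown because they bear on how the values can be read. Gm8783 and Gm15801 are processed pseudogenes of 522 bases on chromosome 19 (40622460 to 40622981 on the plus strand and 40560537 to 40561058 on the minus strand of mm10), and all 522 bases are the same. Each lies inside a protein-coding gene of its own strand, Gm8783 in Entpd1 and Gm15801 in Aldh18a1, whose reads could also have been counted there. Processed pseudogenes are copies of the mRNA of another gene. That parent gene was not compared with them, and its reads could have been counted there too. Bases 1 to 120 of both, in the GENCODE M21 transcripts, follow on 1 line each.
Gm8783: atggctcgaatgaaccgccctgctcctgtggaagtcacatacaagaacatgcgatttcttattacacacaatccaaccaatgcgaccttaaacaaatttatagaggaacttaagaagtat
Gm15801: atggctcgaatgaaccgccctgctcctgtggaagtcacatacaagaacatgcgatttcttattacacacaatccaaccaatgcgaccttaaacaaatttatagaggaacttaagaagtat
No base differs between these lines, and the pair was fitted in opposite directions. Gm8783 was at 11.7, 6.71, 13.4 and 9.63 CPM with BAT in replicates 1 to 4 and at 18.8, 12.1, 15.4 and 15.6 CPM in control replicates 1 to 4 (-0.61 ± 0.14). Gm15801 was at 20.8, 20.3, 9.78 and 23.3 CPM with BAT in replicates 1 to 4 and at 12.3, 14.2, 9.25 and 13.1 CPM in control replicates 1 to 4 (0.55 ± 0.14). Their sum was 28.9 ± 4.69 CPM with BAT and 27.7 ± 2.81 CPM in control, a log2 difference within the mice of 0.05 ± 0.12 (SD, n = 4), so that neither entry is read as a change.

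Hspb1 encodes a small heat shock protein that binds actin and desmin in muscle. Hsp25-ps1 is its processed pseudogene on chromosome 13 (45078498 to 45079127, minus strand), and 626 of its 630 bases (99.4%) match the coding sequence of Hspb1, which lies on chromosome 5 (135887919 to 135889563, plus strand). Coding bases 541 to 630 hold 3 of the 4 differences, which are in capitals.
Hspb1: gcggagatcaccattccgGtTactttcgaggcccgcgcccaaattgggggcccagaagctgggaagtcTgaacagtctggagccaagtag
Hsp25-ps1: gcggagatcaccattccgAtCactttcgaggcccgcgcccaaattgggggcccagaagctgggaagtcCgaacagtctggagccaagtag
The pair had nearly the same values in every library. Hspb1 was at 304, 233, 154 and 276 CPM with BAT in replicates 1 to 4 and at 412, 280, 166 and 360 CPM in control replicates 1 to 4, and Hsp25-ps1 at 313, 241, 151 and 262 CPM with BAT and 437, 275, 168 and 365 CPM in control. Both were lower in 4 of 4 mice (Hspb1 -0.30 ± 0.08, Hsp25-ps1 -0.33 ± 0.09), and how reads were divided between them is not given in the sources used here.

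Genes of the matrix and of other cells had the largest fitted changes, and the sign of their list medians differed between the mice. All 22 tested macrophage and monocyte genes were fitted above 0 with a median log2 change of 1.21, but none had an interval within 2-fold. Within the mice their median difference was 0.67, 1.86, -7.01 and 7.15 for replicates 1 to 4. The median was -0.42 without replicate 4 and 2.90 without replicate 3. It was 1.73 without replicate 1 and 0.64 without replicate 2, so that its sign turned only without replicate 4. Without both mice that hold a macrophage-rich library it was 1.32, and in the unpaired fit without those libraries it was 1.30. Lyz2 itself had a fitted change of 1.36 ± 3.63, so that its SE exceeded its change. Among genes of at least 5 CPM on average, the largest fitted increases were those of Il1rl1, the receptor of interleukin 33 (2.74 ± 2.65), Hbb-bt, a beta globin (2.62 ± 2.81), the chemokine Cxcl5 (2.57 ± 2.67), the interleukin 1 antagonist Il1rn (2.54 ± 3.69) and complement C3 (2.47 ± 3.74). Cxcl5 was at 7.07, 60.0, 2.89 and 57.3 CPM with BAT in replicates 1 to 4 and at 4.39, 2.14, 15.7 and 0.222 CPM in control replicates 1 to 4, so that 2 BAT libraries carried the difference. The largest fitted decreases among such genes were those of Pagr1a (-1.09 ± 0.40), Cyp1a1, a target of the aryl hydrocarbon receptor (-0.90 ± 0.31), Gm50241, Gm2412 and CT010467.2.

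Extracellular matrix genes were fitted above 0 in 35 of 38 cases (median 0.47), FAP identity genes in 17 of 19 (0.52), tenocyte genes in 9 of 11 (1.25) and inflammatory cytokines and NF-kB targets in 19 of 22 (0.85), and 0 passed in any of them. The matrix median within the mice was -0.21, 1.46, -1.38 and 1.82 for replicates 1 to 4 and the FAP identity median -0.02, 1.05, -2.45 and 3.48, and in both lists the mice stood in the same order as for macrophage genes. Tenocyte genes were at -0.79, 3.63, -0.69 and 3.11, highest in the mouse of the tenocyte-rich BAT replicate 2, and inflammatory genes at 0.54, 1.62, -1.30 and 3.36. In all 4 lists the mice of replicates 2 and 4 were above 0 and that of replicate 3 below. Without replicate 4 the medians were 0.03 for matrix, -0.01 for FAP identity, 0.21 for tenocyte and 0.00 for inflammatory genes, and without replicate 3 they were 1.07, 1.62, 2.11 and 1.84 in that order. Without replicate 2 they were 0.05, 0.18, 0.04 and 0.39. With the macrophage sum as a covariate they were 0.35, 0.29, 1.30 and 0.45. Without both mice that hold a macrophage-rich library they were 0.64, 0.65, 1.59 and 1.04. In the unpaired fit without those libraries they were 0.57, 0.43, 2.21 and 0.85. Serpinh1, the collagen chaperone, averaged 2249 ± 598 CPM with BAT and 1769 ± 206 CPM in control (0.31 ± 0.12), and Timp1, a protease inhibitor, 136 ± 14.7 CPM with BAT and 111 ± 17.6 CPM in control (0.30 ± 0.12). Scx, the transcription factor of tendon, went the other way from its list: it was at 12.4, 11.1, 7.79 and 8.26 CPM with BAT in replicates 1 to 4 and at 13.0, 13.4, 11.8 and 14.3 CPM in control replicates 1 to 4, lower in 4 of 4 mice (-0.43 ± 0.15). The part of macrophage and tendon cells in the differences of single matrix genes was not tested.

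**Figure D4:**
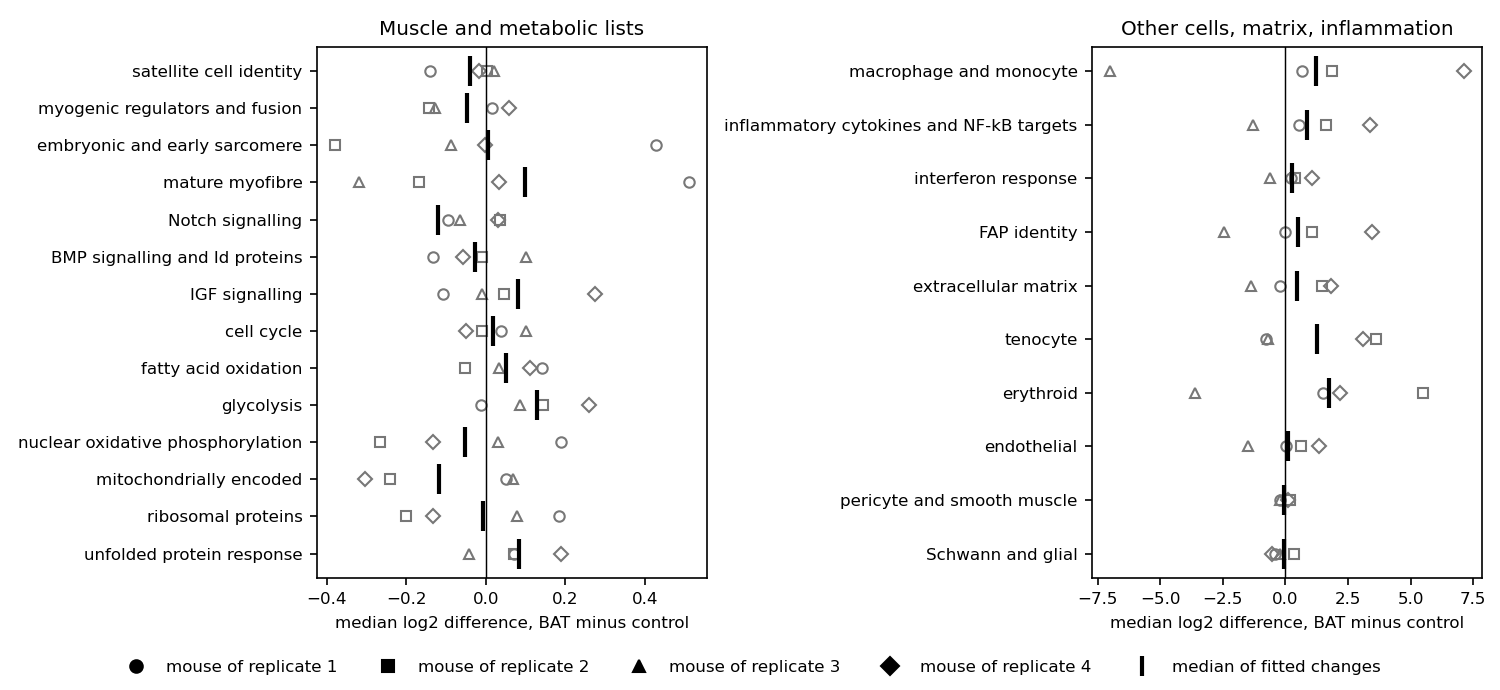
Median log2 difference (BAT minus control) of each gene list in each of the 4 mice, open markers, with the median of the fitted changes as a bar. Muscle and metabolic lists (left) lie between -0.38 and 0.51, and lists of other cells, matrix and inflammation (right, wider axis) reach from -7.01 to 7.15 with the mice of replicates 3 and 4 on opposite sides for macrophage genes.

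Interferon response genes, which were fitted above 0 in 20 of 22 cases (median 0.26), followed the same mice, at 0.22, 0.39, -0.63 and 1.08 for replicates 1 to 4. Their median was 0.02 without replicate 4 and 0.61 without replicate 3. It was 0.26 without both mice that hold a macrophage-rich library and 0.20 in the unpaired fit without those libraries. Il6, a cytokine that acts on satellite cells, was at 16, 27.9, 4.49 and 26.9 CPM with BAT in replicates 1 to 4 and at 9.25, 3.38, 9.09 and 0.932 CPM in control replicates 1 to 4 (1.86 ± 1.39). It was higher with BAT in 3 of 4 mice and lower in the mouse of replicate 3. Endothelial genes had a median of 0.09 and stood at 0.01, 0.63, -1.51 and 1.36 in the mice of replicates 1 to 4, and the median was 0.52 without replicate 3 and -0.29 without replicate 4. Markers of pericytes had a median of -0.05, which ran from -0.13 to 0.16 as each replicate was left out. Markers of Schwann cells had one of -0.06, which ran from -0.21 to 0.06 in the same way and was 0.32 in an unpaired fit without the macrophage-rich libraries. Genes of the unfolded protein response (0.08, 18 of 22 above 0), oxidative stress defence (0.04), p53 targets (-0.04), hypoxia response (-0.04), immediate-early genes (-0.04), adipogenesis (0.16), IGF signalling (0.08) and secreted growth factors (0.05) had 0 members past the test. Some of these medians also differed in sign between the mice of replicates 1 to 4. Adipogenesis genes stood at 0.06, 0.50, -0.42 and 0.81, and immediate-early genes at -0.37, 0.22, -0.60 and 0.52. Secreted growth factors stood at -0.17, 0.23, -0.63 and 0.20. The adipogenesis median was 0.07 without replicate 4 and 0.39 without replicate 3, and the IGF median was -0.07 without replicate 4.

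More genes passed the test between mice than between grafted and control muscle. The mouse term of the same fit, a test chosen after seeing the data, was called for 276 of 15631 genes (1.77%). It was called for 6 of 25 satellite cell identity genes, 6 of 19 myogenic regulators and 8 of 25 early sarcomere genes, and for 0 of 48 nuclear oxidative phosphorylation and 0 of 22 macrophage genes. Between the mouse with the highest and that with the lowest mean, Myog differed by 1.78 on the log2 scale. The fusion gene Mymk differed by 1.70, the embryonic myosin Myh3 by 2.46 and the cadherin Cdh15 by 1.19. The edgeR test of the mouse term takes all 4 mice together and does not test these ranges. Its adjusted p was 0.0269 for Myog, 0.0447 for Mymk, 0.0259 for Myh3 and 0.0174 for Cdh15. Cdh15 was at 257, 426, 238 and 573 CPM with BAT in replicates 1 to 4 and at 291, 370, 258 and 555 CPM in control replicates 1 to 4, so that the 2 libraries of each pair stood close together. That replicate 3 is 1 mouse is inferred, and the mouse term rests on it too. The median range between mice was 1.89 for early sarcomere and 0.91 for myogenic genes, against 0.49 over all tested genes.

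The BAT effect of day 3 was set against that of day 7 in satellite cells, which came from other mice. No gene passed the test of the difference between the 2 effects (0 of 17774, 0%), with 910 genes at an unadjusted p under 0.05 (5.12%) and a lowest adjusted p of 0.123. Limma voom called 0 genes, with 987 at an unadjusted p under 0.05, and DESeq2 called 8: Ak1, Ckm, Acta1, Pygm, Hspb6, Ncs1, Gm8783 and Gm37206. The genes of smallest p were Ckm, Ak1, Hspb6, Pygm and Arhgef16 among those with the higher effect at day 3, and Gm8783, Myo15b, Egln3, Pcsk1 and Gm17473 among those with the lower. In the joint fit of both days, Ckm had a change of 0.38 ± 0.15 at day 3 and of -1.05 ± 0.13 at day 7 (difference 1.43 ± 0.20), and Ak1, an adenylate kinase, 0.16 ± 0.08 at day 3 and -0.67 ± 0.08 at day 7 (difference 0.84 ± 0.12). Pygm, the glycogen phosphorylase of muscle, differed by 0.92 ± 0.16 and the small heat shock protein Hspb6 by 0.91 ± 0.16. Hspb6 was at 8.90, 9.74, 7.54 and 9.42 CPM with BAT in replicates 1 to 4 of day 3 and at 6.73, 6.94, 7.13 and 7.46 CPM in control replicates 1 to 4, without overlap. Such a gap in this direction was seen in 0.531% of the genes tested at day 3. Genes of the opposite strand overlap Hspb6. Gm8783, the lowest of the differences (-1.43 ± 0.23), is the pseudogene with an identical copy. Day 3 and day 7 libraries also stand in separate deposited tables, so that day and table cannot be told apart.

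The BAT effect in satellite cells was compared with that in FAPs of the same muscles, with a block for each mouse within each cell type. That both cell types came from the same mice was thus left out of the fit. In it edgeR called 0 genes higher (0%) and 14 lower (0.0803% of 17445), with 511 at an unadjusted p under 0.05 (2.93%). Among them were Chrnd, Mgl2, Nup210, Alox5, Atp2a1, Pax7, Trim55, Ano5, Ptgds, Myh3, Wnt7b, Krt8-ps and Prkag3. In satellite cells their BAT changes lay between -0.30 and 0.12. The FAP values that differed were those of 1 library: all 14 had their highest FAP level in FAP BAT replicate 1, at 0.618 to 10.2 CPM, against at most 0.366 CPM in the other 7 FAP libraries. Chrnd, a subunit of the muscle acetylcholine receptor, was at 111, 140, 132 and 166 CPM in satellite cells with BAT and 104, 114, 126 and 167 CPM in control satellite cells, while in FAPs it was at 10.2, 0, 0 and 0 CPM with BAT and at 0 CPM in all 4 control libraries (difference of log2 effects -9.26 ± 0.41, adjusted p = 0.000435, a fitted value that depends on the prior count). Pax7 was at 1.2, 0, 0 and 0 CPM in FAPs with BAT and at 0 CPM in all 4 control FAP libraries.

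FAP BAT replicate 1 comes from the same mouse as the macrophage-rich satellite cell BAT replicate 4, and it too was rich in macrophage transcripts, with Lyz2 at 2530 CPM there and at 3.60 to 54.6 CPM in the remaining FAP BAT libraries, against 4.40 to 32.2 CPM in control FAPs. Myod1 was at 34.0 CPM in it, against at most 0.109 CPM in the other FAP BAT libraries and at most 0.341 CPM in control FAPs. Without the FAP pair of that mouse, an alternative added after seeing the data, edgeR called 0 genes, with 586 at an unadjusted p under 0.05. The fit without the mouse block and limma voom each called 0 (399 and 523 at an unadjusted p under 0.05), and DESeq2 called 12, of which 5 were among the 14. Leaving out the satellite cell pairs of replicates 1, 2, 3 and 4 in turn, with all FAP pairs kept, gave 1, 1, 30 and 4 calls.

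**Figure D5:**
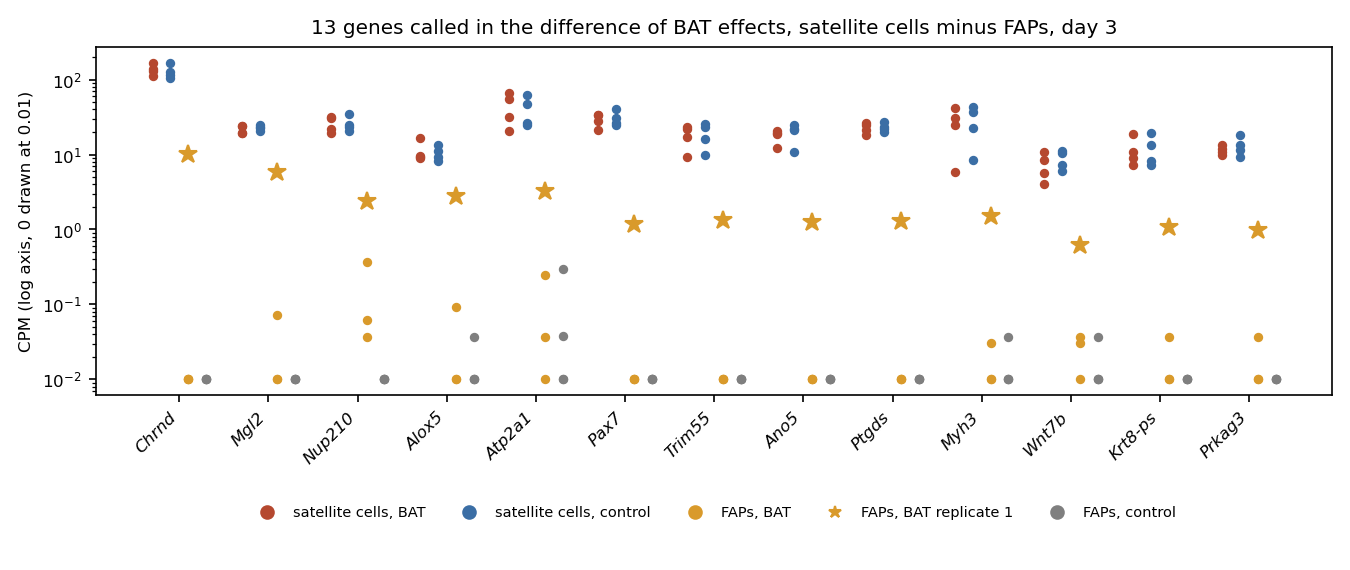
CPM (log axis, 0 drawn at 0.01) of 13 genes called in the difference of BAT effects between satellite cells and FAPs at day 3, with satellite cells left, FAPs right and BAT left of control. The star marks FAP BAT replicate 1, which holds 0.618 to 10.2 CPM of each gene, while the satellite cell groups overlap.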

How the data were processed

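The authors deposited expected counts per gene, not normalised, in 1 table per day (of the values above 0, exactly whole ones made up 71.8%). DRAGEN and mm10 are named in the submitters' processing notes. Annotation, strand and how reads with several matches were counted: not given in the sources used here. Per the labels' protocols, cDNA was made from total RNA with the SMARTer Ultra Low kit. Of 55774 entries 287 repeated another and were dropped, leaving 55487 genes, and counts were rounded, a shift of at most 0.000343% in a library's total.

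Labels number 3 replicates per group, and the library without a number is replicate 4. Mouse codes in the labels pair BAT with control. The libraries of replicate 3 have no code and were taken as a pair, which is an inference. The mouse was a block because the labels state that paired samples share a mouse. Within pairs, the libraries' deviations from the group mean correlated at 0.32, 0.13, -0.36 and -0.22 over all tested genes and at 0.38, 0.74, 0.86 and 0.53 over 76 genes of 4 muscle lists. Across pairs, BAT replicate 3 with control replicate 4 reached 0.42 and BAT replicate 4 with control replicate 3 reached 0.53 over all genes, and BAT replicate 1 with control replicate 2 reached 0.86 over the muscle genes, so that the values alone do not settle the inferred pair.

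Genes were tested with edgeR 4.0.16 in R 4.3.3 (quasi-likelihood F test, TMM, filterByExpr with minimum count 10 and minimum total 15, Benjamini-Hochberg adjusted p under 0.05). SE is the absolute log2 change over the square root of F, and 95% intervals use the residual and prior degrees of freedom. Mouse differences use log2 CPM with a prior count of 2. Where a change is given, CPM is TMM-adjusted within the 8 libraries, except in the comparison with FAPs. Values of marker genes in the opening, list sums and the values of both cell types in the comparison with FAPs are plain CPM. DESeq2 1.42.0, limma 3.58.1, other scalings and filters and left-out mice were alternatives. The fits were tested on simulated data that held no difference between mice and no macrophage-rich library, so that these features were not covered. Positions and transcript sequences are from GENCODE M21, which holds 192 of the 193 named gene IDs. Genes were named by rule: smallest p with the same direction in 4 of 4 mice, largest change, list members of smallest p, the differences of effects, check genes and calls under alternatives. Of the called genes, 1 is not reported here. Marker genes named besides these were chosen after their values were seen. The 33 gene lists, the members and the rules were chosen with earlier results of these data known.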

Additional observations from a re-analysis of the deposited data

Results flagged for a closer look

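In 144 groups of 4 values, 23 held a value whose distance to the nearest other exceeded the critical share of the range (values here are CPM before TMM adjustment). That share gives about 1 in 20 for independent, normally distributed values. The groups here share libraries and genes, so that the 23 cannot be set against that rate. BAT replicate 4 stood apart for the summed CPM of mature myofibre (1843, low), macrophage (4328, Spp1 included), neutrophil (20.6) and lymphocyte genes (7.84), and for Ly6a (42.8 CPM), Ptprc (10.3), Lyz2 (1058) and Pecam1 (2.60). BAT replicate 2 stood apart for Stc1 (3.91 CPM). Control replicate 3 stood apart for the sums of FAP identity (718), endothelial (48.5), macrophage (4312), neutrophil (239), lymphocyte (9.47) and erythroid genes (247), and for Ly6a (32.5 CPM), Pdgfra (13.9), Ptprc (9.91), Lyz2 (953) and Pecam1 (2.61). Control replicate 4 stood apart for the satellite cell identity sum (5350), Hadha (103 CPM) and Serpinh1 (2136 CPM).

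The BAT effects of satellite cells and FAPs at day 3 differed by the edgeR test of the difference for 14 genes, 13 of which are given here, on the log2 scale by -9.26 for Chrnd, -8.64 for Mgl2, -7.49 for Nup210, -5.74 for Alox5, -3.30 for Atp2a1, -6.32 for Pax7, -6.47 for Trim55, -6.47 for Ano5, -6.43 for Ptgds, -5.13 for Myh3, -4.09 for Wnt7b, -6.20 for Krt8-ps and -6.18 for Prkag3. These fitted values depend on the prior count, since 10 of the 14 had 0 counts in all control FAP libraries.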

How the results depend on the processing

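The count of 0 genes between BAT and control was the same under other size factors, without the replicate block (0 calls, 167 at an unadjusted p under 0.05), without the 2 mice that hold a macrophage-rich library, with the macrophage covariate, in both joint fits, with limma voom and with DESeq2, and in an unpaired fit without the 2 macrophage-rich libraries that was added after seeing the data. It was 2 without the filter on low counts (Gm45837 and Rnu3b1) and 0 to 2 when each replicate was left out. The difference between days had 8 calls with DESeq2, 3 without the filter (Ak1, Ckm and Gm8783) and 0 in the other alternatives. The 14 calls of the difference between cell types became 0 with limma voom, 0 without the replicate block, 7 without the satellite cell pairs of the macrophage-rich mice (their FAP pairs kept), 1 to 30 when 1 satellite cell pair was left out and all FAP pairs kept, 0 without the pair of FAP replicate 1, and 0 without that mouse in both cell types. The cause of the moves between tools was not tested. Of 403 list medians recomputed, 394 moved by less than the spread between mice. The early sarcomere median was -0.36, the myogenic one -0.25, the Notch one -0.20, the p53 one -0.19, the satellite cell identity one -0.12 and that of the unfolded protein response -0.02 in the unpaired fit without the macrophage-rich libraries. Without replicate 1 the Notch median was -0.03, and without the macrophage-rich mice it was -0.05 and that of p53 targets -0.15. Of 2695 gene changes recomputed, 2659 kept their sign or moved by less than the SE, 34 changed sign by more than the SE with neither value called, and 2 passed the threshold (Arg1 and Tnn without replicate 3). With 3 residual degrees of freedom and 4 mice, smaller changes than the intervals given could not be seen, and counts in the least abundant lists are limited by depth.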
